A study of Mus musculus with 6 samples.

Results

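The genes described here encode ATP-dependent chromatin remodellers other than INO80, with the subunits and histone variants that they work with. They were followed in whole hearts of mouse embryos at embryonic day 13.5 (e13.5), with or without deletion of *Ino80* in the endothelial lineage. A gene belonged to the group if its symbol, joined by gene identifier from the authors' comparison table to the count table, was on a list of named subunits of SWI/SNF, CHD and NuRD, ISWI, SRCAP and TIP60, the RuvB-like ATPases and the H2A.Z genes, with *Hells* and *Atrx*. The rule uses no expression value. All 56 symbols were found, on 57 of the 45792 entries of the count table, since *Srcap* stands on 2 entries. Of the 56 genes, 54 had enough counts to be tested. *Actl6b* and *Chd5* did not.

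The study asked how INO80 in endothelial cells affects growth of the heart wall, and RNA of 3 control and 3 mutant hearts was sequenced. The labels give all 6 hearts the strain C57BL/6 and call the controls wild-type and the mutants Tie2Cre INO80 flox/flox. The study's methods are wider on both points: mixed backgrounds were used, and any genotype other than Tie2Cre;*Ino80* fl/fl could serve as a control, so that a control may carry Cre or floxed alleles. *Tie2Cre* drives recombination in endothelial and endocardial cells and their descendants, which are a minority of the cells of a whole heart, and the other cells keep *Ino80*.

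Each heart is 1 library of 28948836 to 89675692 counts, the deepest being mutant replicate 1. *Ino80* itself was counted at 30.2, 31.6 and 32.7 CPM in the controls and at 36.5, 33.7 and 31.8 CPM in the mutants, where CPM is TMM-scaled counts per M counts. It was therefore not lower in the mutant-labelled hearts (log2 fold change 0.11 ± 0.08 SE, edgeR adjusted p = 0.47). A sum over the whole gene in whole hearts does not check an exon deletion in endothelial cells, and the groups are called mutant and control as labelled. Markers of heart muscle summed to 16000 to 20500 CPM in the controls and 16400 to 17500 CPM in the mutants. The sum hides opposed changes. At an unadjusted p under 0.05, 2 of 9 were higher (*Myh6*, log2 fold change 0.48, and *Myl7*, 0.69) and 1 lower (*Tnni3*, -0.47). Endothelial markers summed to 789 to 996 and 897 to 954 CPM, with 0 of 8 higher or lower at that level. Erythroid markers summed to 8800 to 39200 CPM in the controls and 5550 to 10200 CPM in the mutants. Of 7 erythroid markers, 5 were lower at an unadjusted p under 0.05, against 9.98% of all genes. Proliferation markers summed to 1740 to 1860 and 1950 to 2010 CPM, with 6 of 12 higher at that level, against 9.48% of all genes. These were *Ccnb1* and *Mcm2*, *Mcm3*, *Mcm5*, *Mcm6* and *Mcm7*. The study had reported MCM genes as upregulated in these same hearts, so their count is no separate finding. The other proliferation markers had log2 fold changes from -0.08 (*Pcna*) to 0.18 (*Birc5*), with 0.04 for *Mki67*. Epicardial markers ran from 121 to 146 and from 146 to 172 CPM, with 1 of 6 higher and 1 lower. Macrophage markers ran from 40.9 to 59.5 and from 54.3 to 59 CPM, with 1 of 6 lower. Neuron and neural crest markers ran from 9.43 to 10.9 CPM over all hearts, with 0 of the 6 tested higher or lower. Y-linked transcripts were present in control replicates 1 and 2 and in mutant replicate 3 (198 to 240 CPM) and nearly absent in the other hearts (at most 0.0309 CPM). The part of cell composition and embryo sex in the differences given here was not tested beyond the fit with the Y-linked sum, and in bulk RNA a smaller number of expressing cells cannot be told apart from less RNA per cell.

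Chromatin remodellers use ATP to slide, evict or exchange nucleosomes. They fall into families by their ATPase. SWI/SNF (BAF and PBAF) complexes slide and eject nucleosomes at enhancers and promoters, ISWI complexes space them, CHD proteins include the ATPases of the deacetylase complex NuRD, and the INO80-related SRCAP and TIP60 complexes place the histone variant H2A.Z into nucleosomes. INO80 shares the RuvB-like ATPases with the latter complexes and acts on H2A.Z nucleosomes as well. In the developing heart, the cardiac subunit BAF60C (*Smarcd3*), BRG1 (*Smarca4*) and CHD7 are known for their roles in muscle and valve formation.

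Levels of different genes can be compared only per transcript length, and for this the control hearts were used, in TPM over the longest annotated transcript of each gene. *H2afz*, the main H2A.Z gene, was highest with 537 TPM, and its paralogue *H2afv* reached 75.2 TPM. NuRD genes filled most of the next places: *Mbd3*, the subunit that sets NuRD apart through its methyl-CpG-binding-like domain, with 108 TPM, the deacetylase *Hdac2* with 72.9 TPM and the ATPase *Chd4* with 71.0 TPM. *Smarce1* (BAF57) led the SWI/SNF subunits with 59.4 TPM over this length, but over the union of exons it had 32.2 TPM, below *Smarca4* with 43.0 TPM. At the other end stood 5 genes: *Chd9* with 4.32 TPM, *Srcap* with 0.495 TPM, *Dpf1* with 0.341 TPM, *Chd5* with 0.030 TPM and *Actl6b* with 0.005 TPM.

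*Dpf1*, *Chd5* and *Actl6b* are known as neuronal members of their families. *Actl6b*, the neuronal BAF53B subunit, had 0, 0 and 1 counts in the controls and 1, 0 and 0 in the mutants, whereas its general counterpart *Actl6a* was counted at 42.7 to 54.3 CPM in every heart. *Chd5* lay between 0.102 and 0.340 CPM, and *Dpf1* between 0.647 and 0.940 CPM. The level of *Srcap* is uncertain. Its 2 entries overlap, with 61.7% of the exonic bases of the main entry (chromosome 7, 127511983 to 127561219, plus strand, GRCm38) shared with a second gene model on the same strand, so reads from that stretch may have been dropped or divided in counting. Of the 55 neighbours in the order of levels, 7 were further apart than the sum of their SDs over the control hearts: *H2afz* and *Mbd3*, *Mbd3* and *H2afv*, *Arid1a* and *Phf10*, *Rsf1* and *Chd9*, *Chd9* and *Srcap*, *Srcap* and *Dpf1*, and *Dpf1* and *Chd5*. The other neighbours did not differ beyond their spread. The length used matters for some genes: over the longest coding transcript *Smarcb1* stood at 49.3 in place of 11.5 TPM, *Phf10* at 48.0 in place of 21.5 TPM and *Smarcd3* at 35.6 in place of 17.2 TPM.

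**Figure D1:**
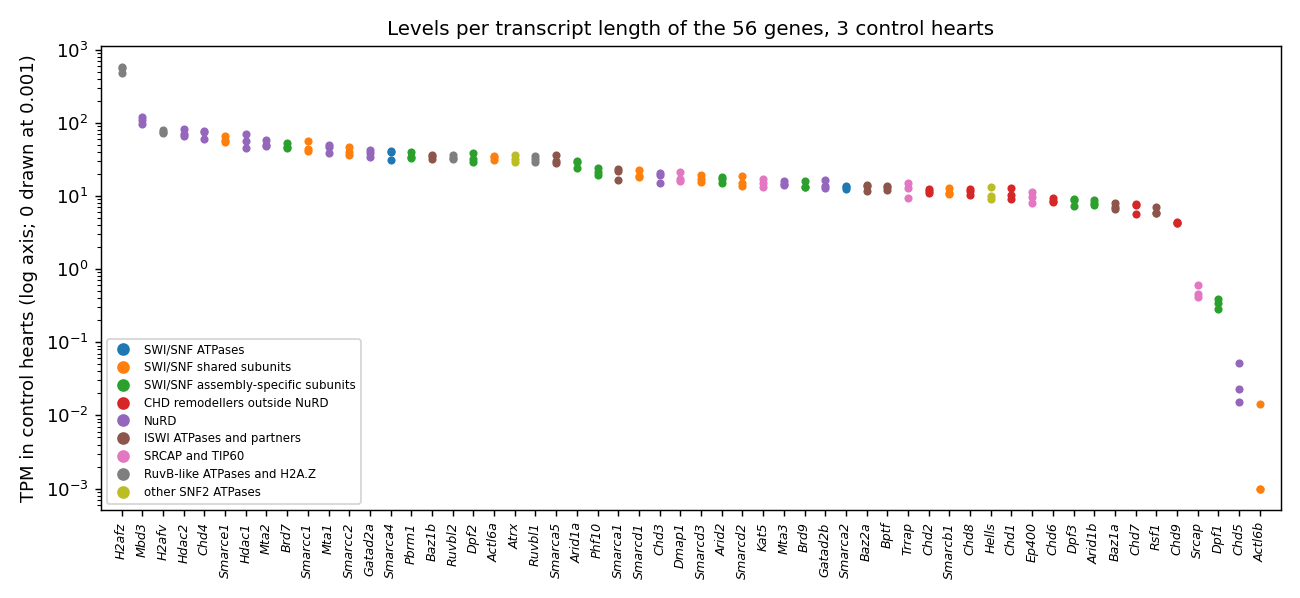
TPM (log axis) of the 56 genes in the 3 control hearts, 1 point per heart, ordered by the control mean and coloured by complex. Most genes lie between 4.32 TPM (*Chd9*) and 108 TPM (*Mbd3*), with *H2afz* above at 537 TPM and *Srcap*, *Dpf1*, *Chd5* and *Actl6b* below.

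Between mutant and control hearts no remodeller gene passed the test at an adjusted p of 0.05. The smallest adjusted p among the 54 was 0.18 in edgeR and 0.12 in DESeq2. This is also the result over all genes in edgeR, where 0 of 17125 (0%) passed. DESeq2 called 2.73% of the genes it tested higher and 3.5% lower, and none of the remodeller genes. At an unadjusted p under 0.05, 8 of 54 remodeller genes (14.8%) were higher in the mutants, against 9.48% of all genes tested, and 0 were lower, against 9.98%.

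The differences were small and mostly in 1 direction. Log2 fold changes ran from -0.12 (*Smarca2*) to 0.31 (*Chd7*, *Chd3* and *Srcap*), with a median of 0.09 where the median of all genes was 0. They were above 0 for 42 of the 54 (77.8%), against 49.7% of all genes. For 12 genes (22.2%) every mutant heart lay above every control heart, against 14.3% of all genes, and for 1 gene, *Smarca2*, every mutant heart lay below, against 12.8%. For 34 of the 54 genes the 95% confidence interval excluded a difference of 1.25-fold or more in either direction, and only *Dpf1*, counted low, had an interval that reached below the lower limit. The count of 8 changed with the hearts in the fit. It was 2 without control replicate 2 (against 7.39% of all genes) or without mutant replicate 1 (6.92%), 4 without mutant replicate 2 (6.71%), and 5 without control replicate 1 (11.4%), without mutant replicate 3 (7.69%) or with the Y-linked covariate (7.77%). The fold changes of the 8 genes kept their sign in these fits, from 0.13 (*Smarce1*) to 0.43 (*Chd3* and *Chd7*) with 1 heart left out. The 8 were picked by their p in these same hearts, so the unchanged sign is no separate support. The median over the members ran from 0.06 to 0.10.

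**Figure D2:**
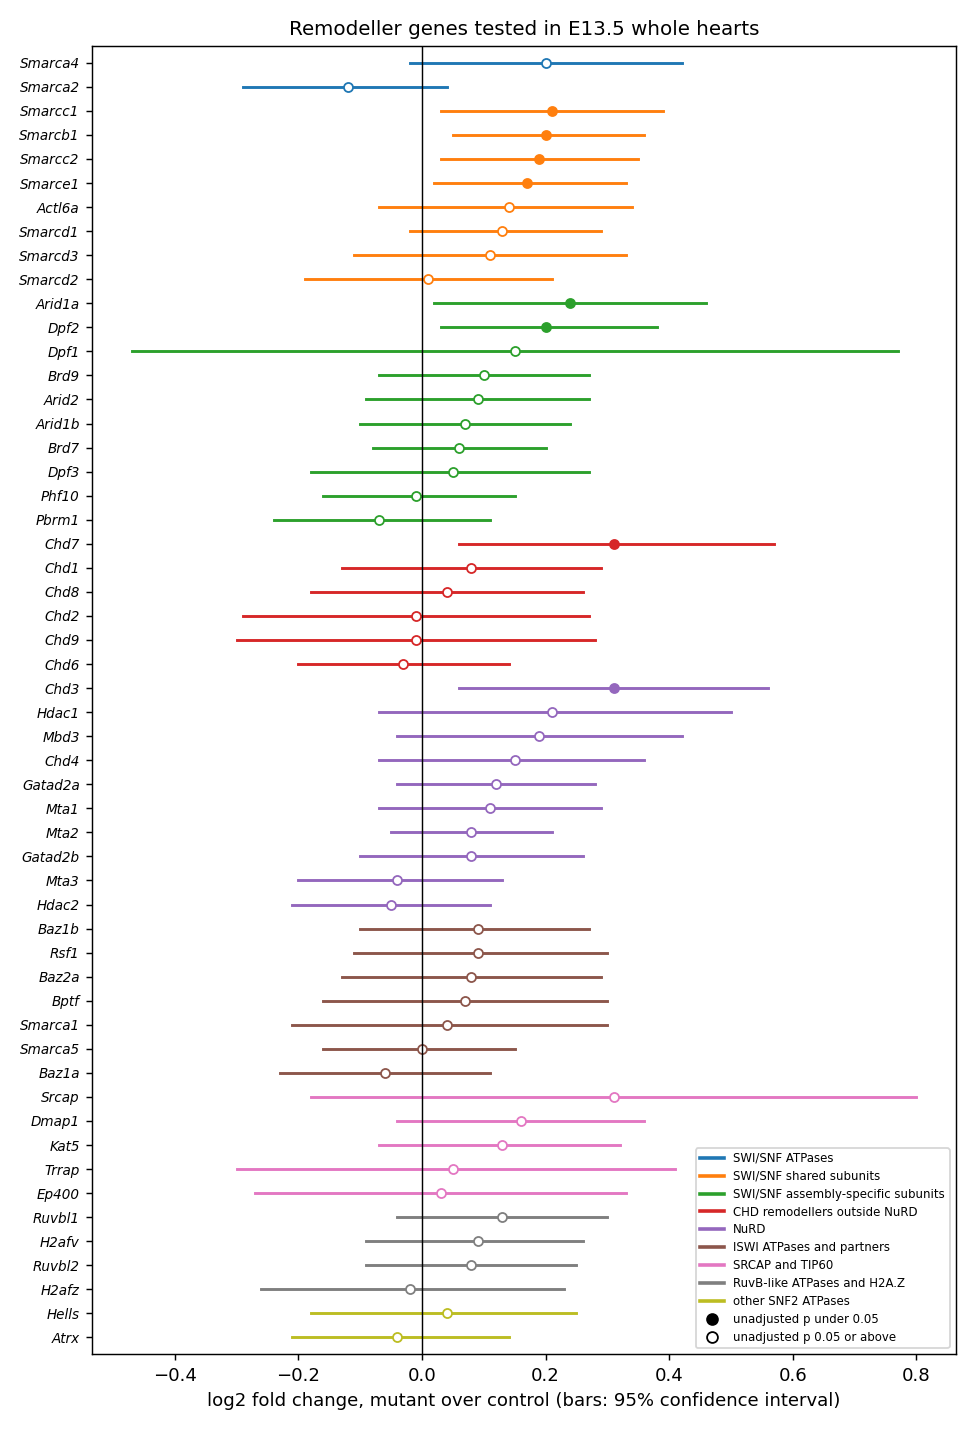
Log2 fold change, mutant over control, of the 54 remodeller genes tested (x axis), with 95% confidence intervals from edgeR, grouped by complex. Filled points mark the 8 genes with an unadjusted p under 0.05, all of which lie to the right of 0, between 0.17 and 0.31.

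Of the 8 genes, 6 belong to SWI/SNF. Of 20 SWI/SNF genes tested, 17 were above 0 and 6 (30%) had an unadjusted p under 0.05, all higher, whereas 2 of the 34 other remodeller genes (5.88%) did, beside 9.48% of all genes. The SWI/SNF count was not stable. It was 1 without mutant replicate 1, 2 without control replicate 2, 4 without control replicate 1, and 3 without mutant replicate 2, without mutant replicate 3, with the Y-linked covariate or with length and GC offsets. The median log2 fold change was 0.12 in SWI/SNF and 0.08 in the others. Whether the families differ was not tested.

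The alternative ATPases of SWI/SNF had fold changes of opposite sign. *Smarca4*, which encodes BRG1, was counted at 159, 141 and 179 CPM in the controls and at 188, 175 and 188 CPM in the mutants. Mutant replicate 2 lay below control replicate 3, so the groups overlapped (log2 fold change 0.20 ± 0.10 SE, edgeR adjusted p = 0.29). *Smarca2*, which encodes the paralogue BRM, was counted at 48.8, 52.1 and 54.0 CPM in the controls and at 47.8, 48.0 and 46.3 CPM in the mutants. All 3 mutant hearts were below all 3 controls, but the lowest control and the highest mutant were only 0.77 CPM apart (log2 fold change -0.12 ± 0.07 SE, edgeR adjusted p = 0.36).

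A set of SWI/SNF subunits is listed here as shared, which does not mean that each is part of every assembly. All of these that were tested were above 0, 8 of 8 against 49.7% of all genes. Their median log2 fold change was 0.15, and 4 (50%) were higher at an unadjusted p under 0.05, against 9.48%. *Smarcb1* encodes BAF47, a core subunit that grips the nucleosome. It was counted at 57.7, 56.1 and 57.0 CPM in the controls and at 61.9, 66.2 and 68.4 CPM in the mutants, without overlap. The log2 fold change was 0.20 ± 0.07 SE (edgeR adjusted p = 0.18), and it was the most stable of the 8 across the alternative fits, with an unadjusted p under 0.05 in 11 of 13.

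*Smarcc1* and *Smarcc2* encode the scaffold subunits BAF155 and BAF170. *Smarcc1* was counted at 196, 170 and 178 CPM in the controls and at 215, 203 and 211 CPM in the mutants (log2 fold change 0.21 ± 0.08 SE, edgeR adjusted p = 0.20). *Smarcc2* was counted at 126, 116 and 125 CPM in the controls and at 147, 135 and 138 CPM in the mutants (0.19 ± 0.07, edgeR adjusted p = 0.19). In both genes the mutants lay above all controls, by at least 6.7 CPM for *Smarcc1* and 8.6 CPM for *Smarcc2*. *Smarce1*, the HMG-box subunit BAF57, was counted at 123, 120 and 126 CPM in the controls and at 147, 136 and 133 CPM in the mutants, again without overlap (0.17 ± 0.07, edgeR adjusted p = 0.22).

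The other shared subunits did not reach an unadjusted p of 0.05. *Smarcd1* (BAF60A) went from 43.2 ± 1.54 (SD, n = 3) to 47.5 ± 0.452 CPM without overlap (edgeR adjusted p = 0.32). *Smarcd2* (BAF60B) was nearly level, with 28.7 ± 2.23 and 28.9 ± 1.49 CPM, and the cardiac subunit gene *Smarcd3* stood at 43.1 ± 2.74 and 46.6 ± 4.76 CPM with overlapping groups. *Smarcd3* shares 48.2% of its exonic bases with a gene on the opposite strand, *Chpf2*, and the library kit named in the labels does not mark strand, so part of its count may belong to *Chpf2*.

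The 8 genes lie apart in the genome (GENCODE vM21, GRCm38). The shared SWI/SNF subunits are *Smarcb1* (chromosome 10, 75896769 to 75921617, minus strand), *Smarcc1* (chromosome 9, 110117708 to 110240178, plus strand), *Smarcc2* (chromosome 10, 128459248 to 128490482, plus strand) and *Smarce1* (chromosome 11, 99209047 to 99231017, minus strand). The others are *Arid1a* (chromosome 4, 133679008 to 133756769, minus strand), *Dpf2* (chromosome 19, 5896516 to 5913010, minus strand), *Chd7* (chromosome 4, 8690406 to 8867659, plus strand) and *Chd3* (chromosome 11, 69343273 to 69369406, minus strand). Counts were summed over all exons of each gene.

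**Figure D3:**
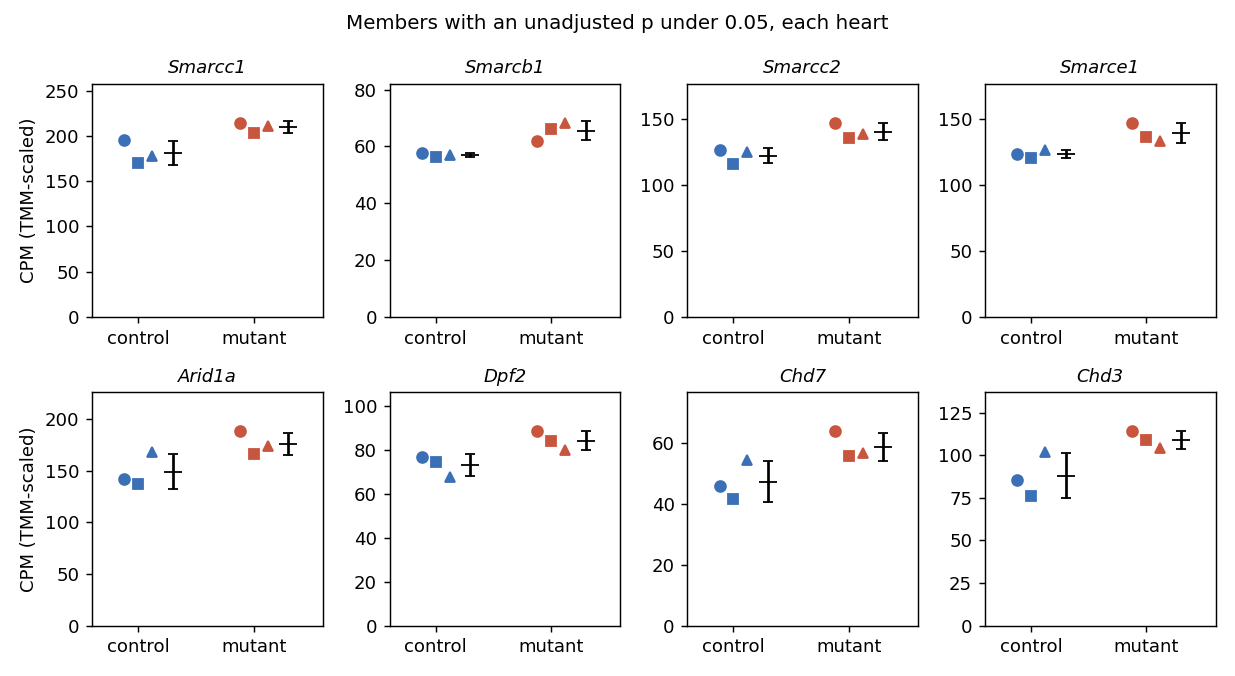
TMM-scaled CPM of the 8 genes with an unadjusted p under 0.05, 1 point per heart (circle, square and triangle for replicates 1, 2 and 3), with mean and SD (n = 3) in black. The genes were picked by their p in these same hearts. In 7 of the 8 genes all mutant hearts lie above all controls. In *Arid1a*, mutant replicate 2 (166 CPM) lies below control replicate 3 (168 CPM).

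Among the subunits listed as specific to BAF, PBAF or ncBAF assemblies, 8 of 10 were above 0, against 49.7% of all genes. At an unadjusted p under 0.05, 2 (20%) were higher, against 9.48%. *Arid1a*, the DNA-binding subunit of canonical BAF, was counted at 142, 137 and 168 CPM in the controls and at 188, 166 and 174 CPM in the mutants. Control replicate 3 lay inside the mutant range (log2 fold change 0.24 ± 0.10 SE, edgeR adjusted p = 0.22). *Dpf2* (BAF45D), a PHD finger subunit of BAF, was counted at 77.1, 74.9 and 67.7 CPM in the controls and at 88.7, 84.2 and 80.2 CPM in the mutants, without overlap (0.20 ± 0.08, edgeR adjusted p = 0.20).

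The subunits of PBAF were closer to level. *Pbrm1*, its defining bromodomain subunit, stood at 187 ± 5.05 and 179 ± 12.2 CPM (log2 fold change -0.07, 95% interval -0.24 to 0.11), *Arid2* at 94.0 ± 4.96 and 99.8 ± 7.25 CPM (0.09, -0.09 to 0.27), *Phf10* at 55.7 ± 2.72 and 55.4 ± 0.696 CPM (-0.01, -0.16 to 0.15) and *Brd7* at 116 ± 3.01 and 121 ± 3.69 CPM (0.06, -0.08 to 0.20). *Brd9*, the bromodomain subunit of ncBAF, was higher in every mutant heart than in every control, at 43.5 ± 0.850 and 46.6 ± 2.82 CPM (edgeR adjusted p = 0.47). *Arid1b*, the alternative to *Arid1a* in BAF, differed by 0.07 on the log2 scale, and *Dpf3*, a muscle-enriched member of the *Dpf* family, by 0.05.

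Of the 6 CHD remodellers outside NuRD, 3 were above 0 and 3 below. At an unadjusted p under 0.05, 1 (16.7%) was higher, against 9.48% of all genes. That gene was *Chd7*, which is mutated in CHARGE syndrome. It was counted at 45.9, 41.5 and 54.5 CPM in the controls and at 63.8, 55.6 and 56.6 CPM in the mutants. The groups did not overlap, although control replicate 3 came within 1.1 CPM of mutant replicate 2 (log2 fold change 0.31 ± 0.11 SE, edgeR adjusted p = 0.19). The other members of its subfamily showed no such difference: *Chd6* had a log2 fold change of -0.03, *Chd8* of 0.04 and *Chd9* of -0.01. *Chd1* and *Chd2*, which act at transcribed genes, had 0.08 and -0.01.

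In NuRD, which joins a CHD ATPase to histone deacetylases, 8 of 10 genes were above 0, with a median of 0.12. Every mutant lay above every control in 3 (30%), against 14.3% of all genes. *Chd3*, the less abundant ATPase, was counted at 85.5, 76.0 and 102 CPM in the controls and at 114, 109 and 104 CPM in the mutants. Mutant replicate 3 was 1.3 CPM above control replicate 3, and the controls were widely spread (log2 fold change 0.31 ± 0.11 SE, edgeR adjusted p = 0.19). *Chd4*, the main ATPase, was counted at 313, 288 and 346 CPM in the controls and at 375, 335 and 337 CPM in the mutants. Its groups overlapped (0.15 ± 0.09, edgeR adjusted p = 0.41).

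The deacetylase genes of NuRD differed in sign. *Hdac1* stood at 77.2 ± 11.6 CPM in the controls and 89.3 ± 9.83 CPM in the mutants (log2 fold change 0.21, edgeR adjusted p = 0.37), and *Hdac2* at 157 ± 8.53 and 152 ± 2.83 CPM (-0.05, edgeR adjusted p = 0.74). The scaffold genes *Mta2* (108 ± 1.56 and 114 ± 1.13 CPM) and *Gatad2a* (127 ± 6.71 and 138 ± 5.37 CPM) were higher in all mutants than in all controls, with log2 fold changes of 0.08 and 0.12, although the nearest hearts of the 2 groups were only 0.017 CPM apart in *Gatad2a*. *Mbd3* had a log2 fold change of 0.19 (edgeR adjusted p = 0.32), *Mta1* of 0.11, *Gatad2b* of 0.08 and *Mta3* of -0.04, each with overlapping groups.

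The ISWI genes had small differences, with log2 fold changes from -0.06 to 0.09. Of 7 genes, 5 were above 0, none had an unadjusted p under 0.05 and none was without overlap. *Smarca5*, which encodes the widely expressed ISWI ATPase SNF2H, was counted at 133, 128 and 120 CPM in the controls and at 128, 130 and 122 CPM in the mutants. Its log2 fold change of 0.00 had a 95% interval of -0.16 to 0.15 (edgeR adjusted p = 0.98). *Smarca1*, which encodes the paralogue SNF2L, was counted at 67.6, 73.7 and 54.9 CPM in the controls and at 69.8, 69.6 and 62.7 CPM in the mutants, with a wider interval of -0.21 to 0.30 (edgeR adjusted p = 0.85). Their partners were also close to level. *Bptf*, the large subunit of NURF, had a log2 fold change of 0.07, *Baz1a*, the ACF subunit, of -0.06, *Baz1b*, which lies in the Williams syndrome region in man, of 0.09, *Baz2a*, the nucleolar NoRC subunit, of 0.08 and *Rsf1* of 0.09.

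SRCAP and TIP60 are the closest relatives of INO80, and all 5 of their genes tested were above 0 by their main entries, without an unadjusted p under 0.05 and without a gene whose groups stood apart. *Srcap* was counted at 2.92, 3.17 and 4.51 CPM in the controls and at 3.73, 4.54 and 4.89 CPM in the mutants. The spread within groups was the widest of all members tested, with a coefficient of variation of 19.6%, and the 95% interval ran from -0.18 to 0.80 (log2 fold change 0.31 ± 0.21 SE, edgeR adjusted p = 0.44). The second *Srcap* entry had the opposite sign, with 0.654 ± 0.165 and 0.601 ± 0.0793 CPM (-0.11 ± 0.30, edgeR adjusted p = 0.86). *Ep400*, the ATPase of TIP60, was counted at 62.7, 60.6 and 83.2 CPM in the controls and at 77.2, 66.0 and 67.2 CPM in the mutants, with control replicate 3 highest of all (0.03 ± 0.13, edgeR adjusted p = 0.92).

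The acetyltransferase gene *Kat5* stood at 22.4 ± 1.49 and 24.5 ± 1.22 CPM (log2 fold change 0.13, edgeR adjusted p = 0.43), and *Dmap1* at 22.1 ± 1.26 and 24.8 ± 1.69 CPM (0.16, edgeR adjusted p = 0.34). *Trrap*, the large scaffold of TIP60, varied most among the well counted members, with 83.7 to 130 CPM in the controls alone.

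The RuvB-like ATPases form the ring that INO80, SRCAP and TIP60 share. *Ruvbl1* was counted at 35.3, 33.9 and 36.7 CPM in the controls and at 37.0, 38.4 and 40.3 CPM in the mutants. The groups stood apart by 0.33 CPM (log2 fold change 0.13 ± 0.07 SE, edgeR adjusted p = 0.37). *Ruvbl2* was counted at 51.1, 52.9 and 53.9 CPM in the controls and at 52.0, 55.6 and 59.3 CPM in the mutants, with overlap (0.08 ± 0.07, edgeR adjusted p = 0.57).

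H2A.Z, the histone that INO80 and SRCAP exchange, was close to level. *H2afz* was counted at 371, 421 and 354 CPM in the controls and at 335, 385 and 412 CPM in the mutants, and both the lowest and the second highest heart were mutants (log2 fold change -0.02 ± 0.11 SE, 95% interval -0.26 to 0.23). *H2afv* was counted at 77.2, 84.5 and 83.6 CPM in the controls and at 80.6, 87.6 and 92.6 CPM in the mutants, with overlap (0.09 ± 0.08, edgeR adjusted p = 0.54). With length and GC offsets the values were 0.17 for *H2afz* and 0.20 for *H2afv* (edgeR adjusted p = 0.25 and 0.15), so their size depended on that choice.

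*Hells* and *Atrx* encode SNF2 family ATPases that act in heterochromatin, the former in DNA methylation and in dividing cells, the latter in H3.3 deposition. *Hells* was counted at 46.7, 41.7 and 37.3 CPM in the controls and at 42.8, 44.5 and 41.5 CPM in the mutants. The mutants lay within the range of the controls (log2 fold change 0.04 ± 0.09 SE, edgeR adjusted p = 0.86). *Atrx*, which is X-linked, was counted at 225, 229 and 210 CPM in the controls and at 223, 222 and 202 CPM in the mutants (-0.04 ± 0.08, edgeR adjusted p = 0.82).

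Ratios of paralogues within a heart do not depend on how libraries are scaled. Of 14 pairs, 4 had ratios that did not overlap between the groups, and none passed the test given below. The share over other gene pairs was not computed. Among single genes, 14.3% of all tested were without overlap and higher in the mutants, and 12.8% lower. The log2 ratio of *Smarca2* to *Smarca4* was -1.70, -1.44 and -1.73 in the controls and -1.98, -1.86 and -2.02 in the mutants, a difference of -0.33. *Hdac2* to *Hdac1* was 0.90, 1.01 and 1.19 in the controls and 0.59, 0.83 and 0.90 in the mutants, a difference of -0.26, with the nearest hearts of the groups at the same value to the second decimal. These were the largest shifts of the 13 pairs with counts in every heart, and both were towards the second gene of the pair.

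*Chd3* to *Chd4* was -1.87, -1.92 and -1.76 in the controls and -1.72, -1.62 and -1.70 in the mutants, a difference of 0.17 towards *Chd3*. *Dpf3* to *Dpf2* was -2.19, -1.94 and -2.07 against -2.28, -2.20 and -2.19, a difference of -0.16. In an exact two-sided permutation test each of these had p = 0.10, the smallest that 3 against 3 hearts allow, and 0.35 after Benjamini-Hochberg adjustment over the 14 pairs, so no ratio passed the test. In the controls, the more abundant paralogue per transcript length was *Smarca4* over *Smarca2* by 2.86-fold, *Chd4* over *Chd3* by 3.91-fold, *Arid1a* over *Arid1b* by 3.37-fold, *Dpf2* over *Dpf3* by 3.97-fold, *H2afz* over *H2afv* by 7.12-fold and *Smarca5* over *Smarca1* by 1.54-fold. *Smarcc2* and *Smarcc1*, and *Ruvbl2* and *Ruvbl1*, were within 1.17-fold of each other. With the union of exons as length, *Smarca4* over *Smarca2* was 6.79-fold and *H2afz* over *H2afv* 4.29-fold, so the size of these ratios depends on the length chosen.

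**Figure D4:**
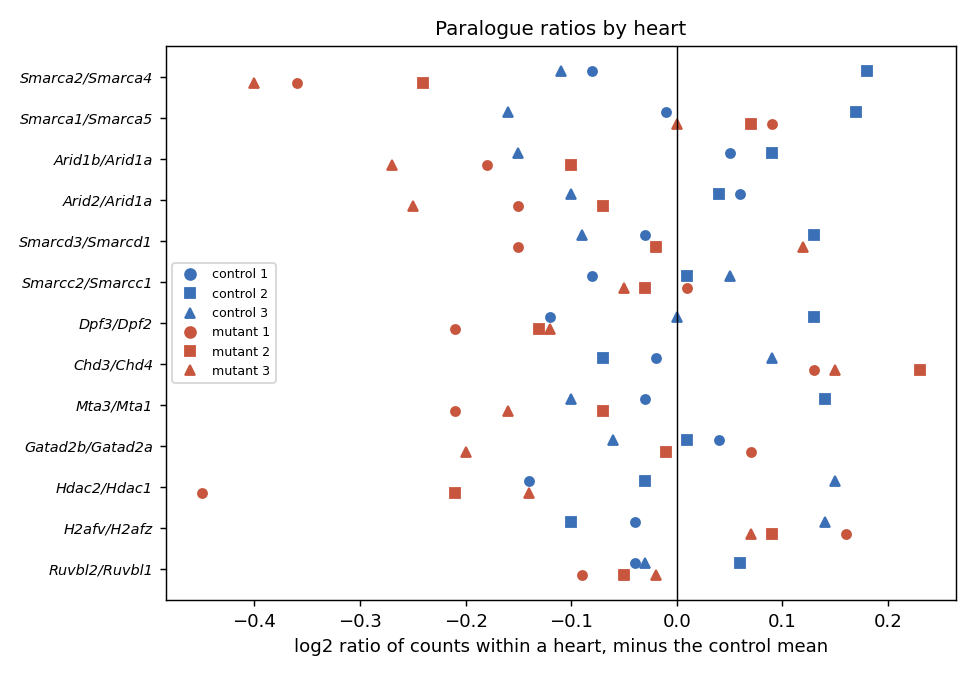
Log2 ratio of the counts of 2 paralogues within each heart, drawn as the distance from the control mean, for the 13 pairs with counts in every heart. Mutant hearts lie apart from the controls for *Smarca2*/*Smarca4* (difference -0.33), *Hdac2*/*Hdac1* (-0.26), *Chd3*/*Chd4* (0.17) and *Dpf3*/*Dpf2* (-0.16), and overlap in the other pairs.

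A further 40 remodeller genes, listed as additional subunits and SNF2 family members, all had enough counts for the test. Of these 28 were above 0, with a median log2 fold change of 0.05, and none passed the adjusted test. At an unadjusted p under 0.05, 5 were higher (12.5%, against 9.48% of all genes) and 1 lower (2.5%, against 9.98%). Every mutant lay above every control in 10 of the 40 (25%, against 14.3%) and below in 4 of the 40 (against 12.8%). Above 0 were 4 of 7 SWI/SNF, 1 of 4 NuRD and 3 of 4 ISWI genes. So were 10 of 13 SRCAP and TIP60 genes and 10 of 12 SNF2 family genes. In the 7 SWI/SNF genes the median was 0.07, and 1 had an unadjusted p under 0.05. The 4 below without overlap were *Mbd2*, *Rbbp7*, *Actr6* and *Smarcal1*. *Mbd2*, the alternative to *Mbd3* in NuRD, stood at 68.7 ± 5.04 and 61.2 ± 2.76 CPM (edgeR adjusted p = 0.28). *Rbbp7*, a histone chaperone, stood at 315 ± 17.0 and 290 ± 3.96 CPM (edgeR adjusted p = 0.39). *Actr6*, of the SRCAP and TIP60 list, stood at 17.9 ± 3.02 and 14.8 ± 0.109 CPM (edgeR adjusted p = 0.28). *Mbd2*, *Rbbp7* and *Actr6* are named after their values were seen. The genes with an unadjusted p under 0.05 follow. The higher genes were *Brd8*, a bromodomain subunit of TIP60 (62.1 ± 5.53 and 74.6 ± 3.22 CPM, edgeR adjusted p = 0.16), *Bcl7c*, a small SWI/SNF subunit (24.2 ± 0.246 and 27.1 ± 0.339 CPM, edgeR adjusted p = 0.25), *Daxx*, the H3.3 chaperone that works with ATRX (23.4 ± 0.573 and 28.1 ± 1.07 CPM, edgeR adjusted p = 0.14), and the DNA repair genes *Chd1l* (17.6 ± 0.968 and 20.6 ± 1.05 CPM) and *Rad54l* (15.7 ± 0.250 and 18.4 ± 0.480 CPM). The lower gene was *Smarcal1*, which acts at stalled replication forks, with 35.6 ± 2.77 and 30.8 ± 1.02 CPM (edgeR adjusted p = 0.23). The smallest adjusted p of the 40 was 0.14 in edgeR and 0.11 in DESeq2.

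The spread between hearts of a group was small for most members, with a median coefficient of variation of 6.36% and a lowest value of 1.24% (*Mta2*). In several hearts the deviations from the group mean followed transcript length. Within the mutant group, long members stood high in replicate 1 and low in replicate 3. Deviations of the 3 hearts of a group sum to 0, so opposed trends within a group are not separate observations. The correlation of a member's deviation from its group mean with the log2 length of its longest transcript was 0.67 in mutant replicate 1 and -0.64 in mutant replicate 3, over 54 members that share these libraries. Over all genes it was 0.40 and -0.30. In control replicate 3 it was 0.46 over the members and 0.02 over all genes. Members longer than the median of 5820.5 bases deviated by a median of 0.10 in mutant replicate 1 and -0.07 in mutant replicate 3. The median difference between the groups was 0.09 over all members.

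Over the 54 members, the correlation of the log2 fold change with length was -0.07 (0.19 over all genes) and with GC content 0.44 (0.11 over all genes). With length and GC content removed in the fit, an alternative chosen after the data were seen, 35 of 54 members were above 0 in place of 42, the median log2 fold change was 0.05 in place of 0.09, 7 members were higher at an unadjusted p under 0.05 against 10.4% of all genes, and *Smarca2* was lower at that level. Of the 8 genes above, *Arid1a*, *Chd3*, *Chd7*, *Smarcb1* and *Smarcc1* stayed under 0.05 in that fit, and *H2afv* (0.20) and *Ruvbl1* (0.18) were under it as well.

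**Figure D5:**
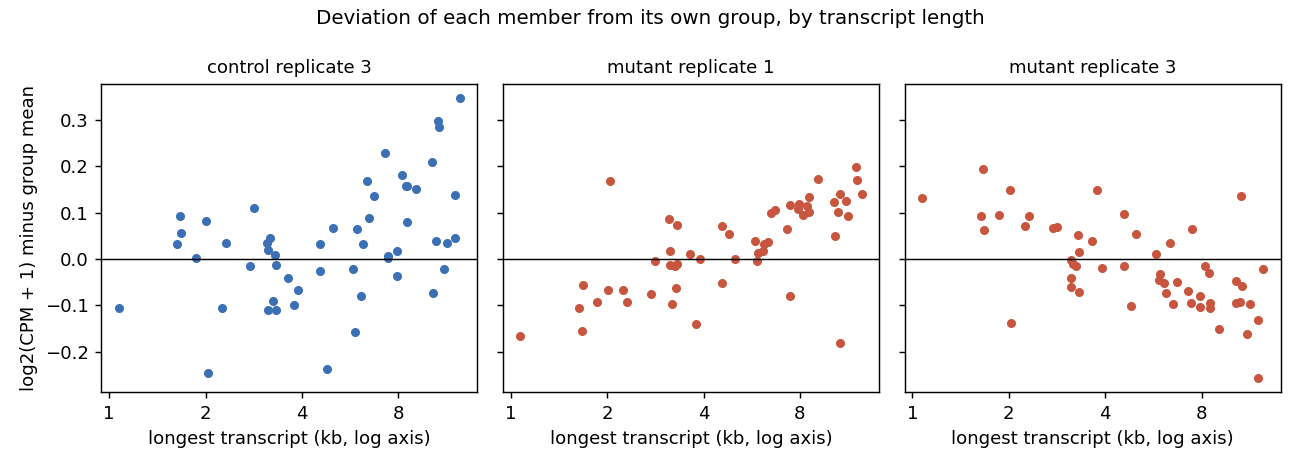
Deviation of log2(CPM + 1) of each of the 54 members from the mean of its own group (y axis) by length of the longest transcript in kb (log axis), in 3 of the 6 hearts. Points climb with length in control replicate 3 (r = 0.46) and mutant replicate 1 (r = 0.67) and descend in mutant replicate 3 (r = -0.64). Deviations sum to 0 within a group, so the opposed mutant trends are tied.

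E2F factors are cell cycle regulators, and their sites were searched for because many proliferation genes carry them. The motifs TTTGGCGC, TTTCGCGC and TTTCCCGC were looked for on both strands of RefSeq promoters (GRCm38.p6, 250 bases before to 50 after a start site). A promoter was found for 46 of the 56 genes, 54 windows in all, and 4 windows (7.41%) held a motif, against 1.84% of all 32851 promoters. Member windows were richer in GC, with a median of 65.7% against 52.7%. All 4 lay at or above 60% GC. In that range 4 of 40 member windows held a motif, against 3.65% of all promoters. The 4 stretches of 30 bases are shown because they hold every match, in gene orientation with the motif in capitals.

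Smarcd1: gtcagcacgccTTTCCCGCtagtcgccccc
Arid1a: tccctccctccTTTCCCGCcccctccccct
Brd7: ggcggcctctcTTTCCCGCtggtttgccgg
Hells: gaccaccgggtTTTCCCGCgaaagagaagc

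They lie at chr15:99702145-99702174 (plus strand, 131 bases before the RefSeq start), chr4:133754022-133754051 (minus, 55 bases before an alternative start of *Arid1a*), chr8:88362182-88362211 (minus, 28 bases before) and chr19:38930917-38930946 (plus, 62 bases before). In GENCODE vM21, whose starts differ from those of RefSeq, the stretches of *Smarcd1*, *Brd7* and *Hells* touch an exon of the gene itself and that of *Arid1a* lies in an intron. All 4 hold the same letters, TTTCCCGC. Of the 4 genes, *Arid1a* alone had an unadjusted p under 0.05, *Smarcd1* was without overlap, and *Brd7* and *Hells* had log2 fold changes of 0.06 and 0.04. No promoter was found for *Smarce1*, *Chd3* or *Chd7*, which also had an unadjusted p under 0.05, so these genes were not searched. A match of letters is not a bound site, and no binding was measured in these libraries.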

How the data were processed

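RNA-seq of e13.5 hearts, 3 control and 3 mutant, was compared. Reads were aligned by the authors with STAR 2.4.2a to the GRCm38 build, and the deposited counts per gene are raw, over the vM6 release of GENCODE. Whether counting used strand is not given in the sources used here. The authors' second deposited table gives a mean normalized signal per gene from DESeq2, used to check the counts (the recomputed mean differed by at most 2.4e-07 percent), and gene symbols. Its fold changes and p-values were not used.

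Counts were fitted over the whole table in edgeR 4.0.16 (R 4.3.3) with filterByExpr (minimum count 10, minimum total 15), TMM scaling, the quasi-likelihood test and Benjamini-Hochberg adjustment over all 17125 genes kept. DESeq2 1.42.0 was an alternative. The fit was tested on simulated data. The study's methods state that mutants came from several litters with littermate controls, but nothing ties a heart to its litter, so litter was not a term of the fit. Libraries of a group differed far more than sampling noise. Paralogue ratios used a prior count of 0.5, and lengths, coordinates and GC came from GENCODE vM21.

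The members and lists were chosen with earlier results of these data known. Named by rule were members with an unadjusted p under 0.05, any DESeq2 call, and 15 ATPase and H2A.Z genes. Other members are given by ranges and counts, or more where space allowed.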

Additional observations from a re-analysis of the deposited data

How the results depend on the processing

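No remodeller gene passed an adjusted p of 0.05 under any alternative run. Over all genes the calls at that level differed widely between runs. DESeq2 called 1011 genes, and edgeR called 603 of 28298 with every gene that had a count. Without control replicate 1 it called 751 of 17290, without control replicate 2 it called 3, and with length and GC offsets 1. The RLE, mean CPM and Y-linked runs called 0, as did the fits without each other single heart. The count of 8 members higher at an unadjusted p under 0.05 (against 9.48% of all genes) was 8 with RLE size factors (9.11%), with DESeq2 (8.49%) and with a mean CPM of at least 1 (10.2%), 9 with every gene that had a count (10.4%), 5 with the Y-linked covariate (7.77%) and 7 with length and GC offsets (10.4%), where 1 member was lower. The shares for DESeq2 and for every gene that had a count are over the 17125 genes of the main fit, not the 28298 with a count. Leaving out 1 heart gave 2 to 8 higher (6.71 to 11.4% of all genes), 0 lower, and a median log2 fold change of 0.06 to 0.1. With raw library totals in place of TMM, which move the median of all genes by 0.06, the count of members with every mutant above every control was 23 in place of 12, against 18.9% of all genes. The same-number correlations of deviations were 0.02, -0.08 and -0.07, and no control correlated best with the mutant of its own number. These values cannot tell whether hearts of the same number shared a litter or batch. A fit with a replicate block gave 11 higher members (against 9.71% of all genes) and none lower. Over all genes it called 14 at an adjusted p under 0.05, where the main fit called 0.

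Among the 21 genes given heart by heart, directions turned only for 7 close to level. *Smarca5* was at 0 with every gene that had a count and with the Y-linked covariate, 0.03 with the offsets, and -0.04 to 0.03 without single hearts. *Ep400* was at -0.05 with the Y-linked covariate and -0.03 with the offsets, *H2afz* at 0.04 and 0.17, and *Ruvbl2* at -0.03 with the offsets. Without single hearts *Ep400* ran from -0.05 to 0.19, *H2afz* from -0.08 to 0.06, *Smarca1* from -0.07 to 0.14, *Hells* from -0.04 to 0.12 and *Atrx* from -0.07 to 0.01. The cause was not tested. With 3 hearts a group, the median distance from a fold change to either end of its 95% interval was 0.19 on the log2 scale.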
